A study of Mus musculus with 3 samples.

Results

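The genes described here are 9 complement components and regulators out of the 27998 genes listed in the count tables. They were taken by symbol: C1ra, C1s1, C2, C4b, C3, Cfb, Cfd, Serping1 and Cd55. All 9 were found, each under 1 identifier. The study profiled cells of dorsal skin from C57BL/6 mice with a droplet method that counts the 3′ ends of transcripts, each molecule carrying a unique molecular identifier (UMI). Each of the 3 libraries stands for 1 age, which is neonatal, 3 weeks or 2 months. The mice of all 3 ages are given as C57BL/6 with no further treatment or genotype, and neither their number per library nor their sex is given in the sources used here. Skin was minced and dissociated with collagenase D and DNase before capture. The study's title places its interest in the dermal adipocyte lineage during skin development and wound repair.

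Complement is a cascade of blood and tissue proteins that marks surfaces for clearance. The classical arm starts when C1q binds and the proteases C1r and C1s cut C4 and C2, the alternative arm runs through factors B and D, and both arms meet at C3. Host cells limit the cascade with soluble inhibitors such as the C1 inhibitor and with membrane proteins such as CD55, which takes apart the enzymes that cut C3. Liver is the best known source of the circulating proteins, but fibroblasts, macrophages and adipocytes make several of them locally.

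The positions below are those of the GRCm38 build (mm10). C1ra and C1s1, the mouse genes of the proteases C1r and C1s, lie near each other at chr6:124512405-124523443 (plus strand) and chr6:124530345-124542359 (minus strand). On chromosome 17 lie 4 of the genes, all on the minus strand: C4b at chr17:34728380-34743882, Cfb at chr17:34856374-34862518, C2 at chr17:34862604-34898265 and C3 at chr17:57203970-57228136. Cfd lies at chr10:79890853-79892655 (plus strand), Serping1 at chr2:84765387-84775444 (minus strand) and Cd55 at chr1:130439027-130462744 (minus strand). All 9 are annotated as protein coding. Among overlapping models, Gm20547 lies on the same strand as both C2 and Cfb, so reads of these neighbours may not separate fully. C1ra, C1s1 and Cd55 have close copies, C1rb, C1s2 and Cd55b. Those copies gave 1 to 9 UMIs per library in the fibroblast-like class, and reads that fit both copies cannot be assigned with certainty.

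RefSeq promoter windows on GRCm38.p6 were matched for 5 of the 9 genes. For C4b, C2, Serping1 and Cfb no window was used. Sequences are shown for C3 and C1s1, whose levels differed with age in fibroblast-like cells, and for Cfd, whose UMIs came mostly from adipocyte-like cells. C1s1 has 2 annotated starts, and the outer one is used. Each run is the 250 bases before the transcription start, 5′ to 3′ on the gene's strand. Capitals mark matches to 5 motifs searched on both strands: the interferon-stimulated response element (GAAA, any 2 bases, GAAA), the STAT site (TTCNNNGAA), the C/EBP site (TTGCNNAA), the NF-kappaB site (GGG, any 3 bases, TTCC) and the nuclear receptor direct repeat (AGGTCA, any base, AGGTCA).
C3, chr17:57228137-57228386, minus strand: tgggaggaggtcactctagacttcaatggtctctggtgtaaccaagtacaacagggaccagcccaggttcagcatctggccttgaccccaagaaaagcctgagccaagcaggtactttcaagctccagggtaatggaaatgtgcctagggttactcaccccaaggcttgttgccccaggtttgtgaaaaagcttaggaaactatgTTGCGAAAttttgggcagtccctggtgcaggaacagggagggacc
C1s1, chr6:124542360-124542609, minus strand: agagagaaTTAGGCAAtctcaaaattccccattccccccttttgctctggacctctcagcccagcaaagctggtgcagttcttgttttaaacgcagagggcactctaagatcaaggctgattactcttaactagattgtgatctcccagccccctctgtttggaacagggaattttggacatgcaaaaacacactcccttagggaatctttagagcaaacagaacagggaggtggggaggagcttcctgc
Cfd, chr10:79890603-79890852, plus strand: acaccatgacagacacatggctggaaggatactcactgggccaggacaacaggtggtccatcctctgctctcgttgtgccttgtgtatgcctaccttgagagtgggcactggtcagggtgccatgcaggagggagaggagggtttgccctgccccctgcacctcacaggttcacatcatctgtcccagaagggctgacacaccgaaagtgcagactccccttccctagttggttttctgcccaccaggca
The windows shown for C3 and C1s1 each hold 1 C/EBP match and that of Cfd holds none of the 5 motifs. The window of the other C1s1 start, chr6:124542322-124542571, holds no match, so the C1s1 match depends on the start used. The windows of C1ra, whose level also differed with age in fibroblast-like cells, and of Cd55 hold none either and are not shown. The C3 match begins 45 bases and the C1s1 match 242 bases before the start. Of all 32851 promoter windows of this length, 9.56% hold a C/EBP match, 7.02% a STAT match, 4.65% an NF-kappaB match, 2.98% an interferon match and 0.0335% the direct repeat. A match to these letters is a description of the window only.

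After filtering and removal of called doublets there were 7471 neonatal, 8662 3-week and 8970 2-month cells, with median depths of 8522, 10987 and 8280 UMIs. The libraries shared 23 to 31 cell barcodes pairwise. Clusters were found without any complement gene and named from marker lists, so every name carries "-like". The fibroblast-like class held 6354, 4874 and 4442 cells, and 58080407, 58779916 and 46958477 UMIs. Another 552 cells at 3 weeks and 330 at 2 months sat in a pair of fibroblast-marked clusters that could not be named and were left out of the class. Levels are given as CPM, the gene's UMIs summed over a class and scaled to a common total, with 95% exact Poisson intervals where they matter. With 1 library per age, differences between ages have no replicate check: they carry no p-value, and intervals and floors cover counting error only. A member was counted as higher or lower between ages when its CPM differed at least 2-fold, among genes at 10 CPM or more in 1 of the libraries.

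In fibroblast-like cells 5 of the 7 measured complement genes were at least 2-fold higher at 3 weeks than in the neonatal library, and none was lower. Over all 8556 measured genes 8.20% were higher by this rule and 10.5% lower. Between 3 weeks and 2 months 3 of 8 measured members were higher and none lower, where 3.63% of 8106 genes were higher and 3.05% lower. The median log2 ratio of the measured members was 2.68 in the first step and 0.73 in the second. Cfb and Cfd in the first step, and Cfd in the second, did not reach 10 CPM in either library. Many fibroblast-like cells lay in clusters of mainly 1 age, such as those of 1491, 1 and 0, of 0, 2047 and 44 and of 0, 6 and 1532 cells. Others were shared by the later ages, such as one of 9, 538 and 838 cells. The part of this in the age ratios was not tested.

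**Figure D1:**
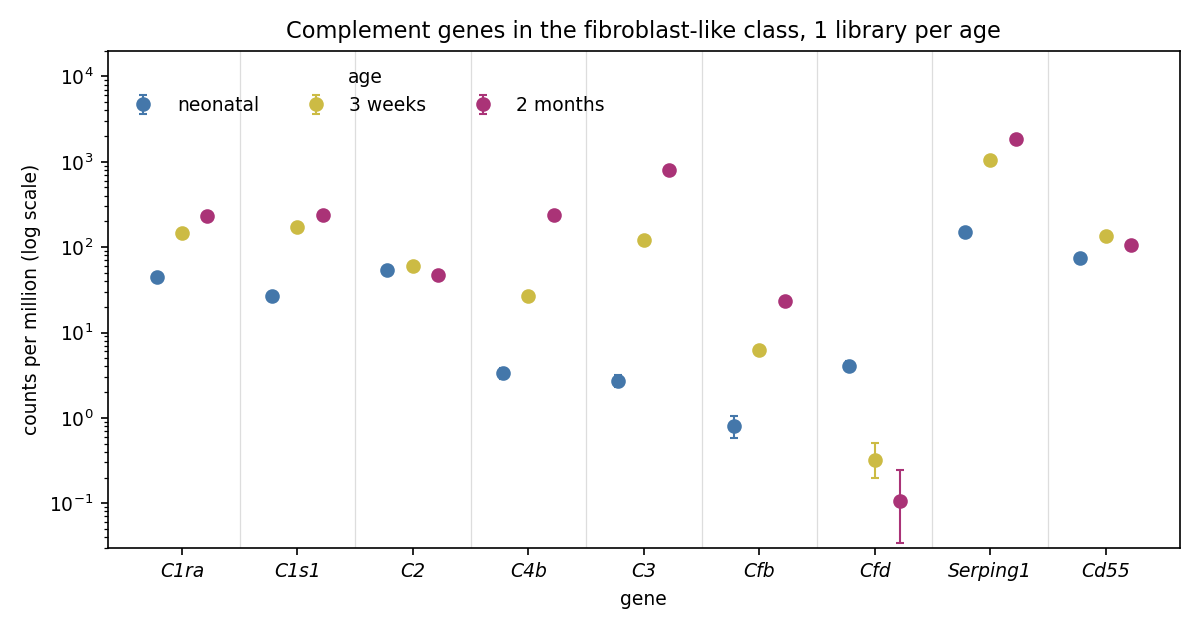
CPM (log axis) of the 9 genes in the fibroblast-like class at each age, 1 point per library. Bars are 95% exact Poisson intervals and are mostly smaller than the points. C3 spans 2.72 to 806 CPM, C2 stays between 47.0 and 59.8, and Cfd is under 5 at every age.

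The genes of the classical proteases were read first. C1ra stood at 44.3 CPM in the neonatal, 147 in the 3-week and 233 in the 2-month fibroblast-like cells. C1s1 stood at 26.5, 170 and 236 CPM. Most of the difference of both genes lay between the neonatal and 3-week libraries, with log2 ratios of 1.73 (interval 1.66 to 1.79) for C1ra and 2.68 (2.61 to 2.76) for C1s1. The second step gave 0.67 for C1ra and 0.47 for C1s1, both under 2-fold.

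C2 and C4b encode the proteins that C1s cuts. C2 stood at 53.5, 59.8 and 47.0 CPM. It was thus near level over the 3 ages, with a range of 1.27-fold between the 3-week and 2-month libraries. This depended on the processing. With a mitochondrial share of at most 5% and cells clustered anew, C2 stood at 56.5, 104 and 47.2 CPM. Of the 4522 3-week cells of the class that passed this filter, 2729 were in the class as named anew. C4b stood at 3.32, 26.8 and 236 CPM, with log2 ratios of 3.01 (2.80 to 3.24) and 3.13 (3.06 to 3.21) in the 2 steps. The classical genes therefore did not share 1 time course: C1ra and C1s1 were higher mainly by 3 weeks, C4b was higher at each step, and C2 was not.

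C3, on which both arms meet, stood at 2.72, 120 and 806 CPM. Its log2 ratios were 5.47 (5.24 to 5.70) at 3 weeks over neonatal and 2.74 (2.71 to 2.78) at 2 months over 3 weeks. Factor B, encoded by Cfb, is cut by factor D to form the enzyme that activates C3. Cfb stood at 0.792, 6.26 and 23.1 CPM, and its second step was a log2 ratio of 1.88 (1.71 to 2.06). Cfd, the gene of factor D or adipsin, stood at 4.10, 0.323 and 0.106 CPM in fibroblast-like cells, so that of these 3 genes only C3 and Cfb passed 10 CPM at any age.

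Of the regulators, Serping1 encodes the C1 inhibitor, which blocks C1r and C1s. It stood at 150, 1059 and 1837 CPM, with log2 ratios of 2.82 (2.78 to 2.85) and 0.80 (0.78 to 0.81). At 1500 UMIs per cell, Serping1 was seen in 12.8%, 69.8% and 83.2% of fibroblast-like cells. T or innate lymphoid-like cells were taken as the background class. In that class 0 of 45 neonatal cells held Serping1, which allows a share of up to 7.87%. At the later ages 1.02% and 2.80% did. Median depths before thinning were 7930, 2613 and 2406 UMIs there and 8454, 11654 and 9533 in the fibroblast-like class. Cd55 stood at 74.5, 134 and 107 CPM. Its log2 ratios were 0.85 (0.80 to 0.90) and -0.33 (-0.38 to -0.28), so neither step reached 2-fold.

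Markers of other cell types within the fibroblast-like class were not level, and not all were low. The Schwann list summed to 488, 617 and 613 CPM, with 3, 4 and 5 of its 7 markers at 1 CPM or more. The T or innate lymphoid list summed to 349, 751 and 485 CPM, with 1, 1 and 5 of its 6 markers at that level. Its neonatal and 3-week sums thus came almost wholly from 1 marker. The sebaceous list summed to 172, 410 and 413 CPM, with 3 of its 6 markers at 1 CPM or more in each library. The keratinocyte list summed to 59.4, 137 and 113 CPM, with 6, 9 and 9 of its 9 markers at that level. The 10 macrophage markers summed to 6.87, 83.8 and 74.7 CPM. All 10 were detected in each library, but only 3, 4 and 4 of them stood at 1 CPM or more. The macrophage genes C1qa, C1qb and C1qc each stayed under 0.6 CPM. The 5 adipocyte markers summed to 8.09, 0.817 and 0.298 CPM, and Lep was at 0 in all 3 libraries. A list of 10 genes induced by tissue dissociation, such as Fos and Jun, summed to 17521, 18170 and 22059 CPM, and the median mitochondrial share of the class was 3.45%, 2.75% and 2.35%. The part of these differences in the age ratios was not tested.

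Within each library the fibroblast-like cells were split into subclusters, named from marker sets or, where a set had no cell type name, by 2 or 3 genes. Unnamed subclusters held 43.1%, 18.8% and 39.9% of the class. The subtypes with 30 or more cells at all 3 ages were the reticular-like cells (500, 762 and 291 cells) and the interstitial progenitor-like cells (158, 374 and 886 cells). Reticular fibroblasts form the deep dermis, and interstitial progenitors are the fascial and adventitial cells marked by genes such as Pi16. Interstitial progenitor-like cells made up 2.49%, 7.67% and 19.9% of the class.

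C3 was concentrated in these 2 subtypes at every age. In reticular-like cells C3 stood at 17.2, 427 and 3081 CPM, and in interstitial progenitor-like cells at 12.4, 448 and 3368 CPM. At 2 months the other named subtypes of 30 or more cells ranged from 3.49 CPM in tendon or fascia-like cells to 90.1 CPM in the group named by Gal, Gpnmb and Pla2g2e. Inside the 2 high subtypes the age difference was also present: 2 months over neonatal gave a log2 ratio of 7.49 (7.21 to 7.78) in reticular-like and 8.09 (7.55 to 8.69) in interstitial progenitor-like cells, against 8.21 (7.99 to 8.45) in the class. The share of interstitial progenitor-like cells also differed between ages, and the reticular-like subtype was itself mixed, as given below. The part of either in the C3 ratios was not tested.

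C2 was highest in reticular-like cells at every age, and C4b was at 3 weeks and 2 months. C4b stood there at 22.0, 131 and 1403 CPM, against 22.5 in neonatal and 212 in 2-month interstitial progenitor-like cells, with a 3-week interval of 25.6 to 34.9. The neonatal values of the 2 subtypes did not differ beyond their intervals (18.4 to 26.1 and 16.6 to 29.7), while at 3 weeks and 2 months the intervals were apart. The Gal, Gpnmb and Pla2g2e group held C4b at 367 CPM at 2 months, above the interstitial progenitor-like level. C2 stood at 271, 316 and 501 CPM in reticular-like cells and at 63.3, 58.9 and 56.4 in interstitial progenitor-like cells. The near level class value of C2 thus covered a log2 ratio of 0.89 from neonatal to 2 months in reticular-like cells and one of -0.17 (-0.44 to 0.12) in interstitial progenitor-like cells. In dermal sheath-like cells C2 was at 44.4 CPM in the neonatal and 14.0 in the 3-week library, in the opposite direction. Reticular-like cells were themselves mixed in C2 and C4b, as given below. The part of a changed mix in their age ratios was not tested.

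C1ra and C1s1 were spread more widely. C1s1 stood at 142, 585 and 746 CPM in reticular-like cells and at 47.2, 276 and 692 in interstitial progenitor-like cells. At 2 months the intervals of these 2 subtypes met (708 to 785 and 674 to 709). The small group named by Vwa1 and Apod, with 81 and 140 cells, held C1s1 at 493 CPM at 3 weeks and 634 at 2 months. Preadipocyte-like cells held C1ra at 148 CPM in the neonatal and 335 in the 3-week library, and C1s1 at 74.8 and 411. The group named by Igfbp2 and Cgref1 was low in both genes, with C1ra at 37.2 and 92.6 and C1s1 at 20.9 and 24.3 CPM at the 2 later ages.

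Serping1 was highest in reticular-like cells at every age, at 595, 2088 and 3869 CPM, and stood at 320, 1258 and 3440 CPM in interstitial progenitor-like cells. At 3 weeks preadipocyte-like cells, at 1465 CPM, were second. The lowest subtype of 30 or more cells at the later ages was 3-week dermal sheath-like cells, at 194 CPM. Neonatal subtypes below that included dermal sheath-like cells (42.2 CPM), dermal papilla-like cells (18.7 CPM) and cycling cells (14.1 CPM). The neonatal group named by Coch, Tnmd and Crabp1 (13.8 CPM) was below that too. Cfb was highest in reticular-like cells (4.50, 24.4 and 94.8 CPM) and interstitial progenitor-like cells (6.42, 16.8 and 74.7 CPM). The neonatal Cfb intervals of the 2 overlapped, at 2.96 to 6.54 and 3.51 to 10.8.

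Cd55 had another order. It was highest among subtypes in interstitial progenitor-like cells in the neonatal library (216 CPM, 197 to 236) and at 2 months (274 CPM, 263 to 286). At 3 weeks interstitial progenitor-like and preadipocyte-like cells did not differ beyond counting error, at 234 CPM (221 to 247) and 240 CPM (223 to 257). In reticular-like cells Cd55 stood at 73.0 CPM at 3 weeks and 64.4 at 2 months, and its neonatal interval was 21.1 to 29.3. The membrane regulator was thus lower in reticular-like than in interstitial progenitor-like cells at each age, the reverse of C2.

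**Figure D2:**
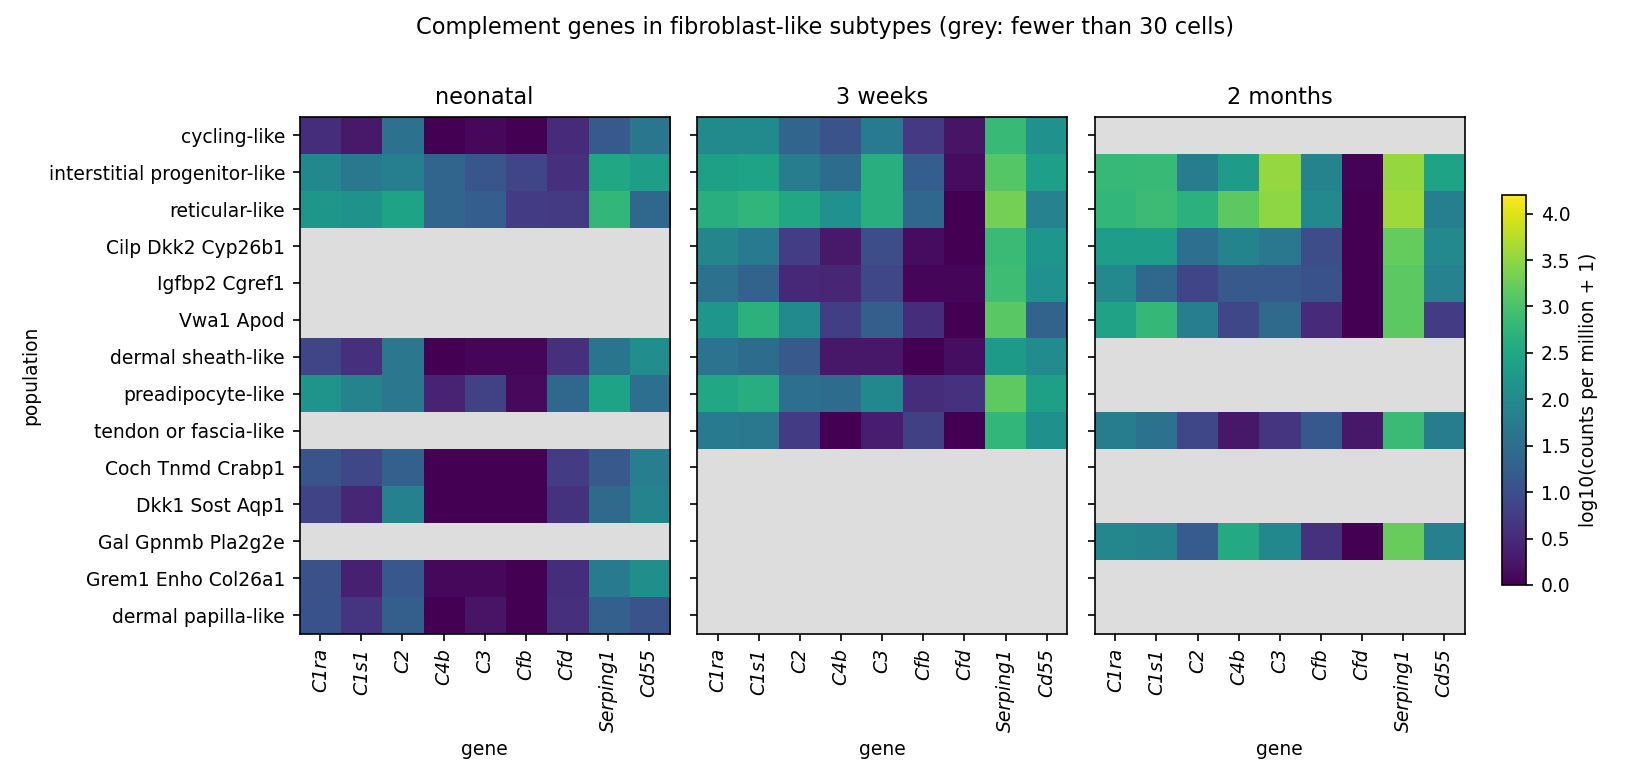
Colour gives log10(CPM + 1) of each gene (columns) in each fibroblast-like subtype (horizontal bands), 1 panel per age. Grey marks a subtype with fewer than 30 cells in that library. The C3 column is brightest in reticular-like and interstitial progenitor-like cells at 2 months, at 3081 and 3368 CPM.

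The reticular-like cells were not uniform. At 3 weeks they formed 2 subclusters, one of 441 cells led by Inmt and Gdf10 and one of 321 cells led by Thbs4 and Meox1. C4b stood at 237 CPM in the first and 12.4 in the second, C3 at 681 and 144, and C2 at 494 and 117. Cd55 went the other way, at 38.1 and 112 CPM. In the neonatal library the reticular-like subcluster led by Ccl11 and Agt (218 cells) held C4b at 43.5 CPM and C3 at 28.2, and the one led by Sfrp4 and Cilp (282 cells) held 3.12 and 7.50. Among interstitial progenitor-like cells at 2 months, the subcluster led by Dmkn and Sbsn (93 cells) held Cd55 at 550 CPM and the larger one (793 cells) at 243, while C4b was at 69.3 and 228. C2 and C4b were themselves among the leading genes of the first 3-week subcluster, although no complement gene entered the clustering.

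Interstitial progenitor-like cells were set against all other fibroblast-like cells over the 3 libraries with edgeR's quasi-likelihood test and the library as a block. Here p-values measure the spread between 3 libraries of different ages, and the adjustment is Benjamini-Hochberg over all genes tested. Of 8 members tested 4 were higher and none lower, where 6.86% of 13294 genes were higher and 8.34% lower. C3 was higher by 2.95 ± 0.37 (log2 ± SE, n = 3 libraries, edgeR adjusted p = 0.00937), from 12.4 against 2.34 CPM, 448 against 86.7 and 3368 against 228. Cfb (2.50 ± 0.36), Cd55 (1.56 ± 0.25) and C1ra (1.43 ± 0.30) were the others, with edgeR adjusted p of 0.0125, 0.0158 and 0.0332, each higher in 3 of 3 libraries. C1s1 (1.39 ± 0.34, edgeR adjusted p = 0.0501) and Serping1 (0.93 ± 0.31, edgeR adjusted p = 0.111) were above the other cells in 3 of 3 libraries and missed the threshold. C4b and C2 gave edgeR adjusted p of 0.471 and 0.392, and the other cells include the reticular-like cells where both were high. C1ra was lost without the neonatal library (edgeR adjusted p = 0.0567) and without the 3-week library (0.0698).

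Inside the reticular-like and interstitial progenitor-like cells the counts by age were as follows. In reticular-like cells 7 of 8 measured members were at least 2-fold higher at 3 weeks than in the neonatal library, where 8.76% of 8163 genes were and 6.16% were lower. C2 was the exception. At 2 months over 3 weeks C3, C4b and Cfb were higher there, 3 of 8, where 4.65% of genes were higher and 4.41% lower. In interstitial progenitor-like cells 5 of 8 were higher in the first step, where 6.92% of genes were higher and 5.71% lower. In the second step 6 of 8 were higher, where 5.61% of genes were higher and 4.59% lower. No measured member was lower in any of these 4 comparisons.

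The genes were also found together in single cells. After each cell was thinned to 1500 UMIs, leaving out 55, 16 and 108 shallower fibroblast-like cells, 1.32% of neonatal, 16.5% of 3-week and 33.9% of 2-month fibroblast-like cells held UMIs of 3 or more of the 9 genes. In interstitial progenitor-like cells those shares were 3.85%, 39.1% and 93.6%, and in reticular-like cells 13.0%, 57.7% and 84.6%. In keratinocyte-like cells they were 0%, 0% and 0.175%, and 0 of 297 neonatal cells allows a share of up to 1.23%. At 3 weeks C3 and C4b met in 88 of 4858 fibroblast-like cells, against 14.4 from the product of their shares, and C1ra and C1s1 met in 376 against 168. C2 and Cd55 met in 36 cells against 56.4. These counts describe the cells of 1 library and carry no test.

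**Figure D3:**
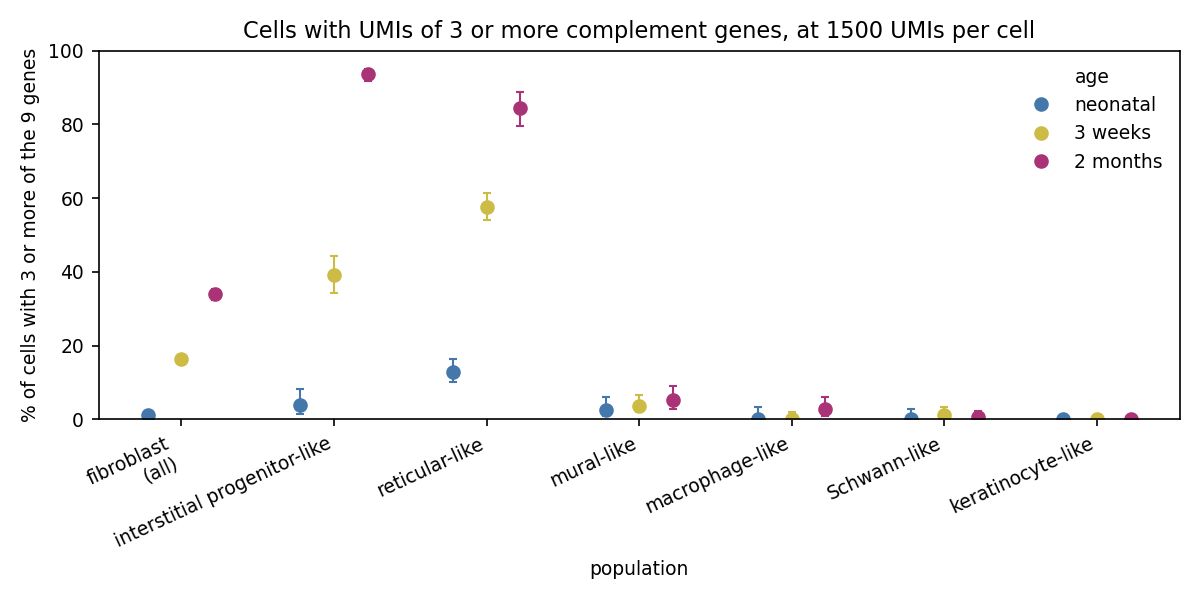
Share of cells (vertical axis, percent) with UMIs of 3 or more of the 9 genes after thinning to 1500 UMIs, by population and age, with exact Clopper-Pearson 95% intervals. Interstitial progenitor-like cells go from 3.85% in the neonatal to 93.6% in the 2-month library, and mural-like cells stay between 2.62% and 5.31%.

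Keratinocytes build the epidermis and the hair follicle epithelium. Of 9 members tested 7 were higher in fibroblast-like than in keratinocyte-like cells and none lower, where 27.5% of 14188 genes were higher and 21.1% lower. Serping1 stood at 1.67 CPM in neonatal and 30.7 in 3-week keratinocyte-like cells, and the difference was 5.96 ± 0.33 (log2 ± SE, n = 3 libraries, edgeR adjusted p = 0.000498). The other 6, C3, C4b, C2, C1ra, C1s1 and Cfb, differed by 4.56 to 5.86. Cd55 differed by 1.53 ± 0.47 (edgeR adjusted p = 0.0519) and missed the threshold. It stood in keratinocyte-like cells at 73.7 CPM at 3 weeks and 77.5 at 2 months, with a neonatal interval of 7.93 to 12.5, and keratinocyte-like cells gave 14.9% of its UMIs at 3 weeks and 23.0% at 2 months. Cfd gave 0.87 ± 0.62 (edgeR adjusted p = 0.297) at levels under 5 CPM in both classes.

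Macrophages clear marked material and make C1q. In macrophage-like cells C1qb stood at 2082, 3351 and 2846 CPM. C4b stood there at 1.47, 197 and 424 CPM. Cfb stood at 3.69, 26.3 and 39.7 CPM, above fibroblast-like cells in 3 of 3 libraries. C2 went the other way, at 84.8, 35.0 and 19.4 CPM. At 3 weeks over neonatal 4 of 7 measured members were at least 2-fold higher in macrophage-like cells and 2, C3 and C2, were lower, where 10.5% of genes were higher and 7.17% lower. At 2 months over 3 weeks 2 of 7, C3 and C4b, were higher and none lower, where 4.36% of genes were higher and 5.17% lower. In these cells C3 rested on 32, 12 and 28 UMIs at the 3 ages and C4b on 2, 202 and 481. Serping1 rested on 5, 50 and 79 UMIs and Cfb on 5, 27 and 45.

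Of 8 members tested, 1 was higher in macrophage-like than in fibroblast-like cells and 4 were lower, where 14.5% of 13665 genes were higher and 19.5% lower. The higher one was Cfb (1.42 ± 0.41 log2 ± SE, n = 3 libraries, edgeR adjusted p = 0.0309). The lower ones were C1s1 (-5.36 ± 0.43), Serping1 (-4.89 ± 0.32), C1ra (-3.32 ± 0.39) and Cd55 (-2.28 ± 0.24), with edgeR adjusted p of 7.98e-05, 3.58e-05, 0.000499 and 0.000263. C4b (1.17 ± 0.57, edgeR adjusted p = 0.159), C3 (-2.50 ± 1.77, 0.322) and C2 (-0.51 ± 0.42, 0.399) missed the threshold, and none of these 3 had the same direction in all 3 libraries. Without the neonatal library all 8 were called by edgeR, with C4b higher by 1.64 and C3 and C2 lower by 4.58 and 1.20 on the log2 scale. Cfb was lost without the 3-week library (edgeR adjusted p = 0.178).

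Mural-like cells, the pericytes and smooth muscle cells of vessels, held C1s1 at 153, 152 and 333 CPM and Serping1 at 349, 391 and 391 CPM. The Serping1 level was near flat with age there, with log2 ratios of 0.16 (0.00 to 0.33) and -0.00 (-0.17 to 0.16), while the fibroblast-like class differed by 2.82 and 0.80. C2 stood at 85.8, 19.8 and 10.7 CPM. Of 6 measured members 2 were at least 2-fold higher at 3 weeks than in the neonatal library and 1, C2, was lower, where 16.9% of genes were higher and 10.8% lower. In the second step C4b and C1s1 were higher and C3 and Cd55 lower, of 7 measured, where 5.43% of genes were higher and 7.54% lower. There C3 rested on 40 and 4 UMIs, Cd55 on 51 and 4, and C4b on 9 and 16. A smooth-muscle cluster gave 0 neonatal, 123 3-week and 16 2-month mural-like cells, so the make-up of the class differed between ages. Its part in these age ratios was not tested. Against fibroblast-like cells 2 of 8 members were lower, C4b (-3.69 ± 0.46 log2 ± SE, n = 3 libraries, edgeR adjusted p = 0.0127) and Cd55 (-3.94 ± 0.52, edgeR adjusted p = 0.0142), and none was higher. Of 13556 genes 6.79% were lower and 6.51% higher. Without the neonatal library 7 of the 8 were called lower by edgeR, and C4b was lost without the 2-month library (edgeR adjusted p = 0.0678).

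Schwann-like cells, the glia of skin nerves, were low in most members. C4b stood at 0.797, 119 and 58.8 CPM. All 6 measured members were at least 2-fold higher in the 3-week than in the neonatal Schwann-like cells, where 11.9% of genes were. C4b and C1ra were lower again at 2 months, 2 of 6, where 6.24% of genes were lower and 4.15% higher. At 3 weeks C4b was above the 26.8 CPM of fibroblast-like cells, and the comparison over the 3 libraries gave -0.54 ± 1.02 (edgeR adjusted p = 0.748). The other 7 members tested were lower than in fibroblast-like cells, where 10.9% of 13576 genes were lower and 8.73% higher. Their differences ran from -2.75 ± 0.37 for Cd55 (edgeR adjusted p = 0.00758, n = 3 libraries) to -6.62 ± 0.55 for C3 (edgeR adjusted p = 0.00207). Cfb was close to the threshold (edgeR adjusted p = 0.0454) and was lost without the 3-week or the 2-month library (0.0657 and 0.247). Cd55 was lost without the 3-week library (edgeR adjusted p = 0.0508).

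**Figure D4:**
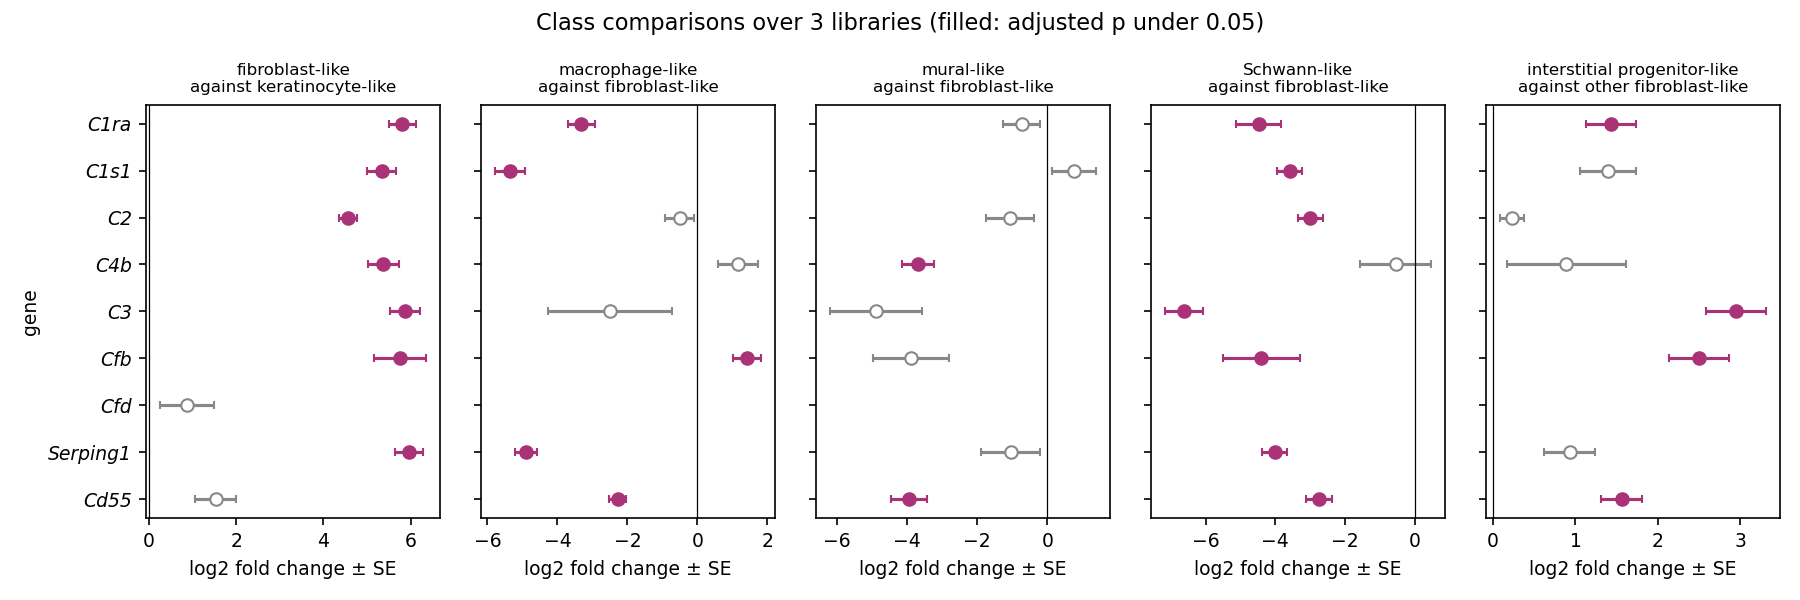
Log2 fold change (horizontal axis) with its standard error for each gene, 1 panel per comparison, from edgeR over 3 libraries. Filled points passed an adjusted p of 0.05. All 7 filled points lie right of 0 in the keratinocyte-like panel and left of 0 in the Schwann-like panel, and Cfb is the one filled point right of 0 in the macrophage-like panel.

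Cfd belonged to the adipocyte-like cells. The 34 neonatal adipocyte-like cells held Cfd at 12241 CPM (12019 to 12465) and gave 97.7% of the 11883 Cfd UMIs of that library. Only 6 and 4 adipocyte-like cells were found at 3 weeks and 2 months. They still gave 89.7% of 330 and 99.5% of 2284 Cfd UMIs, so the level of Cfd in a whole library (159, 3.15 and 25.3 CPM) rested on 4 to 34 cells. The same 34 neonatal cells held C3 at 588 CPM (540 to 638) and gave 557 of the 754 neonatal C3 UMIs (73.9%), while 6354 fibroblast-like cells gave 158 UMIs. At 3 weeks and 2 months fibroblast-like cells gave 92.3% and 93.8% of C3 UMIs. Low Cfd counts were spread over other neonatal classes, such as 1.93 CPM in keratinocyte-like and 3.98 in Schwann-like cells, close to the 4.10 CPM of fibroblast-like cells. In preadipocyte-like cells Cfd stood at 24.5 CPM in the neonatal library (19.5 to 30.5) and 3.10 at 3 weeks. No expression outside adipocyte-like and preadipocyte-like cells is read from these low counts.

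In the remaining classes single members stood out. Mast-like cells held Cd55 at 323 CPM (280 to 371, 95 cells) in the neonatal library, above every fibroblast-like subtype, and at 364 CPM (265 to 486) in 71 cells at 3 weeks with a median depth of 760 UMIs. Skeletal muscle-like cells held Serping1 at 171, 378 and 790 CPM. Melanocyte-like cells held C2 at 48.0 CPM at 3 weeks and 52.3 at 2 months, and C4b at 11.8 and 102. Endothelial-like cells held Cd55 at 42.4, 80.2 and 53.0 CPM and Serping1 at 177 at 3 weeks and 309 at 2 months. The leading genes of this endothelial-like cluster included the lymphatic markers Ccl21a, Mmrn1, Lyve1 and Flt4. T or innate lymphoid-like cells held no member above 10.3 CPM except Serping1, at 31.5 CPM at 2 months.

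**Figure D5:**
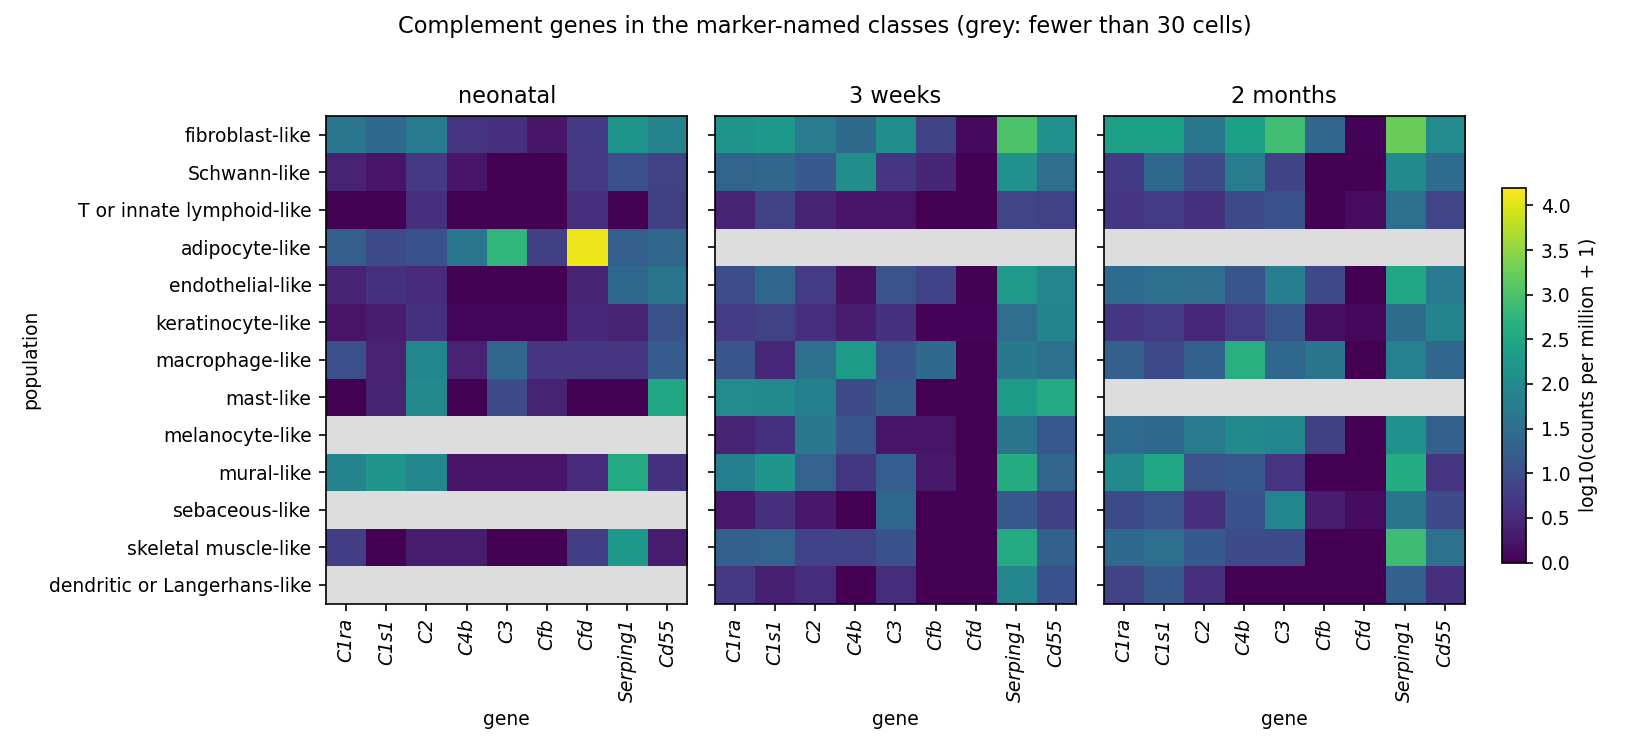
Colour gives log10(CPM + 1) of each gene (columns) in each marker-named class (horizontal bands), 1 panel per age. Grey marks a class with fewer than 30 cells in that library. The neonatal adipocyte-like band is brightest at Cfd (12241 CPM), and the fibroblast-like band brightens at C3, C4b and Serping1 from neonatal to 2 months.

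The rest of the pathway was read from a list of 54 other complement genes found in the files. In fibroblast-like cells 38 of them stayed under 1 CPM in every library, 9 of these without a UMI. Thbd and Vtn were at least 2-fold higher at 3 weeks than in the neonatal library, and Vtn was lower again at 2 months. Thbd encodes thrombomodulin, a membrane protein that also restrains complement, and stood at 14.6, 52.4 and 58.6 CPM. Vtn, the gene of vitronectin, which blocks the terminal pore, stood at 5.60, 16.8 and 6.73 CPM. Colec12, a membrane collectin, stood at 91.0, 69.4 and 75.8, the membrane regulator Cr1l at 32.3, 49.9 and 62.2, and C1qbp, which encodes a C1q-binding protein, at 111, 68.7 and 51.4 CPM. Clu, the gene of clusterin, stood at 6.87, 9.15 and 12.9 CPM.

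In the other classes the complement gene with the most UMIs was often not one of the 9. It was C1qc or C1qb in macrophage-like cells. Cd59a, which encodes a membrane inhibitor of the terminal pore, stood at 154, 409 and 332 CPM in Schwann-like cells and had the most UMIs of the list there. In keratinocyte-like cells C1qbp stood at 184, 147 and 97.8 CPM.

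Genes with the profile most like each member were sought by Pearson correlation of log2(CPM + 1) over 33 class-by-library profiles of 13 classes, among 13411 genes. The profiles share 3 libraries and their classes, and the values carry no test. C1ra and C1s1 were each other's closest gene (r = 0.88). For Serping1 the closest were Igfbp5 (0.87), Prelp (0.87) and Ecm2 (0.86), and for Cfd they were Adipoq (0.97), Car3 (0.96) and Plin1 (0.94). C3 was closest to Serpina3c (0.75), Aldh1a1 (0.75) and Xdh (0.74). C4b was closest to Gstp2 (0.71), Apod (0.70) and Cfb (0.70), and Cfb to Ifi27l2a (0.79). C2 was close to Ccl7 (0.82) and Emilin2 (0.78), and Cd55 was closest to Gm15675 (0.83) and Papss2 (0.78).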

How the data were processed

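Single cells of dorsal skin were counted in 3 libraries, 1 per age. The deposited counts are UMIs per gene and barcode, made by the authors with Cell Ranger 3.0.2 on mm10, with Seurat 2.0 also listed, per the submitters' processing notes. No count column of other samples was present. Barcodes with at least 300 genes, 500 UMIs and at most 10% mitochondrial UMIs were kept. Doublets were called with Scrublet in scanpy 1.11.5. In the neonatal library its own threshold marked 0.0253% of cells, so the top 6% by score, 440 cells, were removed there, and 238 and 362 cells were removed at 3 weeks and 2 months.

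Cells were clustered (2000 variable genes without any complement gene, 30 components, 15 neighbours, Leiden resolution 1 with leidenalg 0.10.2) and named where at least 3 markers were detected. Names were rebuilt here and need not be the authors' own. Counts were summed per class and library. UMIs at the 3′ end were not divided by gene length, so levels are compared within a gene, not between genes. Class comparisons used edgeR 4.0.16 (quasi-likelihood, TMM, library as a block, 2 residual degrees of freedom) in R 4.3.3 with Benjamini-Hochberg adjustment over all genes tested. Cfd passed the filter on low counts only in the comparison with keratinocyte-like cells. On simulated counts the test recovered 77.9% to 88.5% of 4-fold changes, the share depending on the comparison. Alternatives included DESeq2 1.42.0, other scaling, filters, class definitions and leaving out each library.

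All 9 members were named throughout. Other complement genes were named if at 10 CPM or more in fibroblast-like cells or highest in a class, and the 3 most alike genes per member were ranked by correlation. Members, lists and markers were chosen with earlier results of these data known. Positions came from GENCODE M21 and promoters from RefSeq, GRCm38.p6. Some genes covered by these rules are not reported here.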

Additional observations from a re-analysis of the deposited data

Results flagged for a closer look

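In 4 sets of values, classes of the same libraries gave age ratios in opposite directions with counting intervals apart from 0. With 1 library per age none of these differences between classes was tested. For C2 at 3 weeks over neonatal, the log2 ratio of CPM was 1.78 in Schwann-like cells, -1.28 in macrophage-like cells and -2.12 in mural-like cells. For C3 in the same step it was 5.47 in fibroblast-like and -1.01 in macrophage-like cells, the latter with an interval of -2.11 to -0.02.

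For C3 at 2 months over 3 weeks, the log2 ratio was 2.74 in fibroblast-like, 1.94 in keratinocyte-like and 1.08 in macrophage-like cells, and -2.35 in mural-like cells. For C4b in that step it was 3.13 in fibroblast-like, 1.80 in mural-like and 1.11 in macrophage-like cells, and -1.01 in Schwann-like cells. The macrophage-like, mural-like and Schwann-like classes held 112 to 427 cells per library, against 4442 or more fibroblast-like cells. In the second step C3 rested on 40 and 4 UMIs in mural-like cells. Keratinocyte-like cells held C3 at 3.15 and 12.1 CPM, against 0.817 and 10.3 in the T or innate lymphoid-like background class. The mural-like and Schwann-like classes also differed in cluster make-up between ages, as given above. The part of background or make-up in these ratios was not tested.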

How the results depend on the processing

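Of 64 counts of members under the alternatives, 55 stayed within 1.5 times the value reported and 9 did not. In the class comparisons no member called under either setting changed direction. Changes of sign where neither setting gave a call were not counted. With a mitochondrial share of at most 5%, 5 members in place of 3 were 2-fold apart between 3 weeks and 2 months. Of these 4 were higher and 1, C2, was lower, at 104 and 47.2 CPM. The class then held 2729 of the 4522 eligible 3-week cells. The adipocyte marker Adipoq stood in it at 11.3 CPM at 3 weeks and 3.70 at 2 months, against 0.306 and 0.0639 in the class as reported. For mural-like cells 4 members were called with DESeq2, 4 with doublets kept, 4 in one fit over all classes and 1 without the library block. Without the block, 3 members were called for Schwann-like cells and 1 for interstitial progenitor-like cells; the cause was not tested. Leaving out each library gave 7 to 8 members against keratinocyte-like cells, 4 to 8 for macrophage-like, 2 to 7 for mural-like, 6 to 7 for Schwann-like and 3 to 4 for interstitial progenitor-like cells. Of 376 fold changes of members between classes, 328 kept their side of the threshold, 29 gained a call and 19 lost one. Of 162 age ratios 68 moved beyond their counting interval. Cd55 was called against keratinocyte-like cells with DESeq2 (adjusted p = 0.00421). Alternatives chosen after seeing the data were the class with the unnamed fibroblast-marked clusters, and mural-like cells without a smooth-muscle cluster absent from the neonatal library, which gave 3 calls. With 1 library per age, no paired analysis between ages was possible. Class comparisons took the library as a block. Classes of few cells, such as the 4 to 34 adipocyte-like cells per library, limit what depth can show.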

Other observations

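C7 and C6 encode parts of the terminal complement pore and were picked out after their values were seen. In reticular-like cells C7 gave 0, 2 and 131 UMIs in the neonatal, 3-week and 2-month libraries, the last at 66.4 CPM (55.6 to 78.8). In interstitial progenitor-like cells C7 reached 21.4 CPM at 2 months (18.4 to 24.7). C6 gave 0, 1 and 20 UMIs in reticular-like cells, the last at 10.1 CPM (6.20 to 15.7). Both genes were thus seen almost only in the 2-month library in these subtypes, where C3 and C4b were also highest, with 1 library and no test. C6 was not confined to them. It stood at 3.04 CPM over all 2-month cells and was also at least 2-fold higher at 2 months than at 3 weeks in macrophage-like cells.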
